A study of Mus musculus with 6 samples.

Results

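Olig1 and Olig2 are neighbouring genes on mouse chromosome 16 that encode basic helix-loop-helix transcription factors of the oligodendrocyte lineage. All regulatory elements that the deposited enhancer predictions pair with either gene were taken, together with every other target gene of those elements. In control oligodendrocyte precursor cells (Ctr-OPCs) 7 of 33083 elements met this rule, with 7 pairs for Olig1 and 6 for Olig2 among 66637 pairs. In cells given IFN-γ (IFN-γ-OPCs) 8 of 35906 elements met it, with 8 pairs for Olig1 and 7 for Olig2 among 71478. The cells were primary OPCs cultured from brains of Sox10-Cre/RCE mouse pups, in which the Sox10 driver switches on a green fluorescent reporter in the oligodendrocyte lineage, and the labels give this genotype for both conditions. The labels give the strain as C57BL/6j, while per the study's methods the reporter parents were of a mixed background with CD1 and carried 1 or 2 copies of the reporter. They were kept in proliferation medium with bFGF and PDGF-AA. From 24 h after passaging, Ctr-OPCs received that medium alone and IFN-γ-OPCs received it with 100 ng/mL IFN-γ. Per the study's methods, pups of both sexes were used at P4-P6, brains were pooled, and cells were isolated either by sorting for the reporter or with CD140a beads.

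Each condition had 3 HiChIP libraries for H3K27ac, a histone mark of active enhancers and promoters, and the labels assign 1 pooled prediction table to the 3 libraries. No value below therefore has a replicate error, no test between conditions was possible, and the read depth behind the tables is unknown. The predictions come from the activity-by-contact (ABC) model, which multiplies the activity of an element, read from accessibility and H3K27ac, by its contact with a gene start. The ABC score is that product as a share of the total over all elements of the gene. Pairs above a score of 0.05 are called connections here, following the study's methods, and pairs down to 0.02 are listed in the tables.

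OLIG2 specifies oligodendrocyte precursors and, earlier in development, motor neurons, and OLIG1 takes part in their later differentiation and in myelin repair. Both proteins bind E-boxes, the sequence CANNTG, often as partners of the widely expressed E proteins encoded by Tcf3, Tcf4 and Tcf12. IFN-γ is an inflammatory cytokine that signals through its own cell-surface receptor. RNA was not measured in these tables, so nothing below is a level of Olig1 or Olig2 transcript.

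The genes lie in the same orientation on mm10, Olig2 at chr16:91225457-91228677 and Olig1 at chr16:91269772-91271933. The start sites are thus 44.3 kb apart, and elements are named below by their distance downstream of the Olig2 start. Every listed element lay downstream of Olig2. The elements formed 3 groups, a cluster at +5, +7 and +8 kb just past the Olig2 gene, a middle group from +21 to +47 kb around Olig1, and a distal pair at +79 and +80 kb. The +5, +7, +8, +21 and +41 kb elements were intergenic in GENCODE M21. The +45 kb element overlapped a UTR exon of Olig1, and the +47, +79 and +80 kb elements lay in introns of the lincRNA Gm15966, which runs on the opposite strand.

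The sequences at the +8, +41, +79 and +80 kb elements are shown because these were the elements with a connection to Olig1 or Olig2. Each line gives the central 300 bases of the part that the element had in common between the conditions, from the GRCm38 reference, plus strand, with every E-box (CANNTG) in capitals.
+8 kb element, chr16:91233506-91233805: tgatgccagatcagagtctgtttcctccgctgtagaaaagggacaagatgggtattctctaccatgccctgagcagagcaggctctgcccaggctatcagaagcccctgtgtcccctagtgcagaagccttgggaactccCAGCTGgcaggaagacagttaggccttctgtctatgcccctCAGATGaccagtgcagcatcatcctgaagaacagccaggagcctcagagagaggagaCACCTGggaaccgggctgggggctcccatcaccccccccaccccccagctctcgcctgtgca
+41 kb element, chr16:91266029-91266328: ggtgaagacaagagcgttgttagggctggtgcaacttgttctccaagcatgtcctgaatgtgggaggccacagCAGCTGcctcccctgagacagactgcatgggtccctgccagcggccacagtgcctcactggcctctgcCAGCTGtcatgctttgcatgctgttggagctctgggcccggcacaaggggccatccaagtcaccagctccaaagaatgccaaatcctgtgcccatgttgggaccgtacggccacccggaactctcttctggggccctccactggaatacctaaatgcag
+79 kb element, chr16:91304251-91304550: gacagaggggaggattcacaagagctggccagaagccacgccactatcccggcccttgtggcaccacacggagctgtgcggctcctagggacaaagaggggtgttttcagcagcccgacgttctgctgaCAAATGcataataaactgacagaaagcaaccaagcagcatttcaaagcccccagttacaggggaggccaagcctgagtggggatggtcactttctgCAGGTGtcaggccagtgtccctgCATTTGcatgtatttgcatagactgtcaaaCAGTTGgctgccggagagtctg
+80 kb element, chr16:91305646-91305945: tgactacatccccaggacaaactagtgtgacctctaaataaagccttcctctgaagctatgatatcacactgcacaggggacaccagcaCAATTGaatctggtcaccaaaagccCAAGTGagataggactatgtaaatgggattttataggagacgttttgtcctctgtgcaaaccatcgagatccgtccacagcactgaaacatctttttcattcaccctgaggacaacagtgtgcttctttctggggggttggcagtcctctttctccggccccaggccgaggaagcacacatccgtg

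The E-box count in these windows was 3 at +8 kb, 2 at +41 kb, 4 at +79 kb and 2 at +80 kb. Over the central 300 bases of all elements, 82.1% held at least 1 in either condition and the mean number per element was 1.80 in Ctr-OPCs versus 1.78 in IFN-γ-OPCs. The palindromes of the +41 kb window are both CAGCTG. Only the +8 kb window held the form CAGATG or CATATG, searched on both strands and a subset of the E-boxes, which 28.6% of all Ctr-OPC elements held over this length. None of the 4 windows held the SOX core ACAATG, the gamma-activated site TTCNNNGAA or the interferon response core GAAANNGAA, which 15.5%, 8.51% and 8.17% of all Ctr-OPC elements held. In the full elements of IFN-γ-OPCs, all 500 bp wide, CAGATG or CATATG was found in the +7, +8, +21 and +80 kb elements and ACAATG in the +21 and +80 kb elements, against 42.0% and 25.9% of all elements of that width. There, TTCNNNGAA was found once each in the +8, +21 and +47 kb elements, against 15.7%, and GAAANNGAA once, in the +7 kb element, against 18.3%. In Ctr-OPCs, where several elements are wider, CAGATG or CATATG was in +7, +8 and +80 kb, ACAATG in +80 kb, TTCNNNGAA in +8 kb, and GAAANNGAA in +7 and +79 kb. Of all Ctr-OPC elements of 500 bp, 40.9%, 24.2%, 14.6% and 14.3% held these motifs, shares that are not like for like with the wider elements. These matches are descriptions of letters and not of binding.

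**Figure D1:**
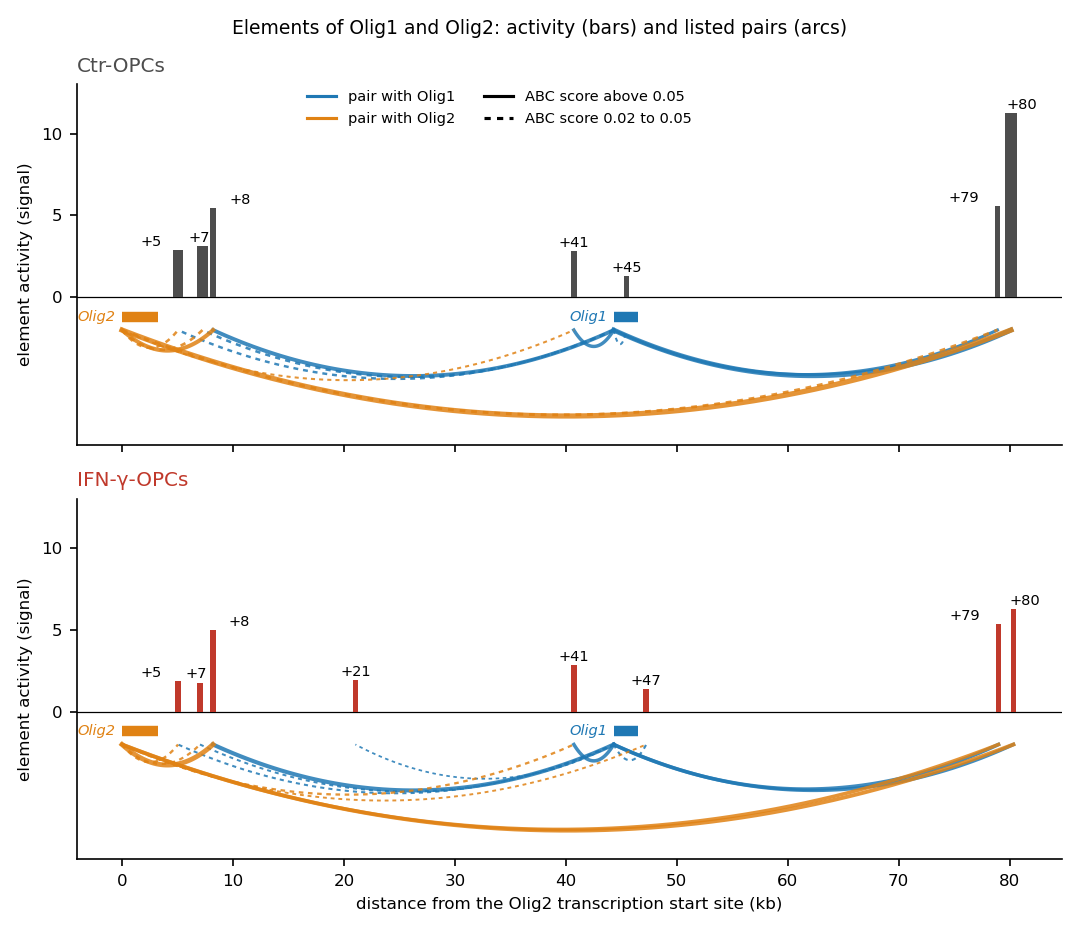
Elements of Olig1 and Olig2 by distance from the Olig2 start site in kb, Ctr-OPCs above and IFN-γ-OPCs below. Bars give element activity (signal, drawn at least 0.5 kb wide), arcs the listed pairs with Olig1 (blue) or Olig2 (orange), solid above an ABC score of 0.05 and thicker with the score. The +80 kb bar reaches 11.3 in Ctr-OPCs against 6.27 in IFN-γ-OPCs, and the +79 kb arc to Olig2 is solid only in IFN-γ-OPCs.

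The locus held some of the most active elements in either table. In Ctr-OPCs the +80 kb element had an activity of 11.3, the +79 kb element 5.55 and the +8 kb element 5.47, while the median over all elements was 0.866. The +80 kb element was above 99.98% of all elements. It was also the widest of the locus, at 1140 bp. Per kb of element it was at 9.89, below the +79 kb element at 11.1 and the +8 kb element at 10.9. The +7 kb element had an activity of 3.14, the +5 kb element 2.89, the +41 kb element 2.81 and the +45 kb element 1.27. All 7 thus exceeded the median of the table, the +45 kb element least. The rule for listing fixes this outcome, so it is not a separate finding about the locus. A pair is listed only down to a lowest score. At the Ctr-OPC totals and listed contacts of Olig1 and Olig2, an element of median activity would fall below that score.

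In IFN-γ-OPCs the +80 kb element was at 6.27, the +79 kb element at 5.35 and the +8 kb element at 5.01, where the median of all elements was 0.803. The +41 kb element was at 2.84, +5 kb at 1.88 and +7 kb at 1.78. The +21 kb element, at 1.94, and the +47 kb element, at 1.37, were listed only with IFN-γ, and the +45 kb element only without it. Over the whole tables, 41.6% of Ctr-OPC elements and 46.2% of IFN-γ-OPC elements had no match in the other condition, beside 1 of 7 and 2 of 8 at this locus. Of the 6 elements found in both tables, 3 had a lower activity in IFN-γ-OPCs by over 1.5-fold and 0 a higher one, and over all 19332 matched elements 13.3% were lower and 9.37% higher by that much. The drop was 1.80-fold at +80 kb, 1.76-fold at +7 kb and 1.54-fold at +5 kb. The +8, +79 and +41 kb elements hardly moved, with log2 ratios of -0.13, -0.055 and 0.019. The median log2 ratio was -0.37 over the 6 elements and -0.084 over all matched elements.

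The 3 elements with lower activity were also the 3 whose boundaries narrowed. The +80 kb element spanned 1140 bp in Ctr-OPCs (chr16:91305003-91306142) and 500 bp in IFN-γ-OPCs (chr16:91305546-91306045). The +7 kb element went from 918 to 500 bp and the +5 kb element from 849 to 500 bp, while the +8, +41 and +79 kb elements had 500 bp in both. Per kb of element, the +80 kb activity was 9.89 in Ctr-OPCs versus 12.5 in IFN-γ-OPCs, that of +7 kb 3.42 and 3.57, and that of +5 kb 3.40 and 3.76, so all 3 were higher with IFN-γ on this scale, with log2 ratios of 0.34, 0.058 and 0.14. The same held across the tables. Among 2093 matched elements wider than 800 bp in Ctr-OPCs and 500 bp in IFN-γ-OPCs the median log2 ratio of activity was -0.65, and among 1107 elements with the reverse change it was 0.60. Per kb, the median log2 ratio of those 2093 elements was 0.36, above that of each of the 3 Olig elements. Over 10069 elements of 500 bp in both it was -0.053. The lower activity at +5, +7 and +80 kb moved with element width, and whether less of the signal or a narrower window lowered it cannot be told apart in these tables.

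Contact was deposited for bins of 5 kb, so that elements in a bin have the same contact with a gene. The values below are the contact after the authors' adjustment. In Ctr-OPCs the cluster at +5 to +8 kb contacted Olig2 with 0.0310 and Olig1 with 0.0305, although it lies 5.04 to 8.20 kb from the first and 36.1 to 39.3 kb from the second. Against listed pairs of a distance within 10% in the same table, these contacts were at percentiles 12.3 to 39.0 for Olig2 and 99.0 to 99.1 for Olig1. The cluster was therefore at an ordinary or low contact for its distance from Olig2, and at a very high one for its distance from Olig1. Contacts were read from HiChIP for H3K27ac, and the pairs of like distance were not matched for activity. Whether activity enters these and the following percentiles was not tested.

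The distal pair also stood above most pairs of like distance. In Ctr-OPCs the +80 kb element had a contact of 0.0203 with Olig2 and 0.0198 with Olig1, percentiles 96.4 and 91.1, and the +79 kb element had 0.0194 and 0.0229, percentiles 95.5 for both. The +41 kb element was the exception to this likeness between the genes, with 0.0507 for Olig1 and 0.0225 for Olig2, a ratio of 2.26. It shares the bin of the Olig1 start site, and its value equalled that of the +45 kb element in the adjacent bin. Equal values of this kind were found for 66.2% of the 3090 genes with a listed pair in both places in Ctr-OPCs, so the figure for a start-site bin may not be a separate measurement.

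The +8, +79 and +80 kb elements had higher contacts with the start sites of the Olig genes than with those of Gm49614 and Gm37016, their nearest listed neighbours, wherever the pair was listed. Gm49614, a transcript of unknown status that starts in the bin upstream of Olig2, at -2.53 kb from its start, had a contact of 0.00919 with the +8 kb element and 0.00766 with the +79 kb element in Ctr-OPCs. The corresponding values for Olig2 were 0.0310 and 0.0194. In IFN-γ-OPCs Gm49614 had 0.0114 with both elements, and Olig2 had 0.0393 and 0.0248. Gm37016, which starts 37.0 kb downstream of Olig2 and thus short of Olig1, had 0.0138 with the +80 kb element in Ctr-OPCs against 0.0133 in IFN-γ-OPCs, below the 0.0198 and 0.0213 of Olig1. The middle elements differed from this. The +21 kb element had 0.0346 with Gm37016 and 0.0239 with Olig1 in IFN-γ-OPCs, and the +41 kb element had 0.0360 and 0.0368 with Gm37016 in the 2 conditions, between its values for Olig1 and for Olig2.

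In IFN-γ-OPCs the contact of Olig2 was higher with every element of the locus listed in both conditions. It was 0.0393 with the +5, +7 and +8 kb elements, 0.0251 with +41 kb, 0.0248 with +79 kb and 0.0239 with +80 kb. The log2 ratios to Ctr-OPCs were 0.34 for the cluster, 0.16 at +41 kb, 0.35 at +79 kb and 0.24 at +80 kb. For Olig1 they were 0.083 for the cluster, -0.12 at +41 kb, 0.19 at +79 kb and 0.11 at +80 kb. Because elements share bins, the 12 pairs hold 8 distinct contacts, of which 7 were higher in IFN-γ-OPCs, 4 of 4 for Olig2 and 3 of 4 for Olig1. Among all 29748 pairs listed in both conditions, 54.6% were higher. None of the 12 pairs passed 1.5-fold in contact, and 20.3% of all pairs did. The median log2 ratio of contact was 0.17 over the 12 pairs against 0.053 over all pairs. The pairs listed at a given distance are not the same in both tables. The median contact of listed pairs of like distance differed by 0.13 to 0.17 on the log2 scale for Olig1 with the cluster and the +80 kb element, above the ratios of these pairs, whose percentiles went from 99.0-99.1 to 98.2-98.4 and from 91.1 to 89.3. Olig1 with +79 kb was slightly above its like pairs, at 0.19 against 0.15, with percentiles of 95.5 and 95.6. Olig1 with +41 kb was below, at -0.12 against 0.031, and its percentile went from 60.1 to 47.0. For Olig2 the pairs exceeded the difference at like distance, which was 0.052 to 0.098 for the cluster, 0.13 at +41 kb, 0.18 at +79 kb and 0.17 at +80 kb, and the percentile of the +79 kb pair went from 95.5 to 98.5. The labels name 1 contact file for all 6 libraries while the tables hold different contacts for the conditions, so how these differences arose from the libraries is not known here.

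**Figure D2:**
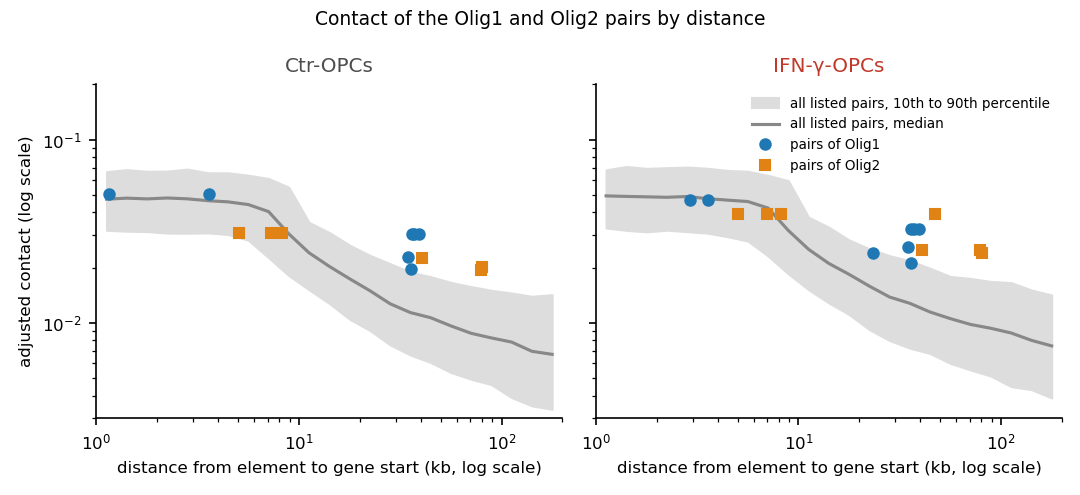
Adjusted contact (log scale) against distance from element to gene start in kb (log scale) for the pairs of Olig1 (circles) and Olig2 (squares), over the median and the 10th to 90th percentile of all listed pairs. In Ctr-OPCs the Olig1 pairs with the cluster, at 0.0305, and the Olig2 pairs with the distal elements, at 0.0203 and 0.0194, lie above the band.

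The scores of the pairs follow from these values. For Olig2 in Ctr-OPCs the +80 kb element had a score of 0.0957 and the +8 kb element 0.0709, and these were its 2 connections. The +79 kb element was at 0.0451, +7 kb at 0.0408, +5 kb at 0.0375 and +41 kb at 0.0264. In IFN-γ-OPCs the +8 kb element led with 0.0881, followed by +80 kb at 0.0670 and +79 kb at 0.0594, which made 3 connections. The +5 kb element was then at 0.0331, +41 kb at 0.0320, +7 kb at 0.0314 and the newly listed +47 kb element at 0.0240. The leading element of Olig2 on the deposited score was +80 kb without IFN-γ and +8 kb with it. This order in Ctr-OPCs moved with element width. With activity per kb of element, the product of activity and contact for Olig2 in Ctr-OPCs was 0.339 at +8 kb, 0.2156 at +79 kb and 0.2005 at +80 kb, so that +8 kb led in both conditions. The gain of a connection turned with the scoring. On the power-law score, which replaces measured contact by a function of distance, Olig2 had 3 connections in Ctr-OPCs against 2 in IFN-γ-OPCs. On that score the +80 kb element was at 0.0300 and 0.0198 and the +79 kb element at 0.0150 and 0.0171, all below the cut-off.

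For Olig1 the same 4 elements were connections in both conditions. In Ctr-OPCs they were +80 kb at 0.0891, +8 kb at 0.0667, +41 kb at 0.0569 and +79 kb at 0.0508, the last just above the cut-off. In IFN-γ-OPCs the order was +8 kb at 0.0714, +79 kb at 0.0614, +80 kb at 0.0587 and +41 kb at 0.0585, so that the range among the 4 narrowed. Per kb of element the product for Olig1 in Ctr-OPCs was highest at +8 kb as well, at 0.334, and lowest of the 4 at +80 kb, at 0.195. Below the cut-off, the +7 kb element went from 0.0384 to 0.0254 and +5 kb from 0.0352 to 0.0268. The +45 kb element was at 0.0258 in Ctr-OPCs, and the +47 and +21 kb elements were at 0.0282 and 0.0204 in IFN-γ-OPCs.

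All 6 connections of Ctr-OPCs were connections in IFN-γ-OPCs, and 6 of the 7 of IFN-γ-OPCs were in Ctr-OPCs. Of all connections, 49.5% and 46.3% were found again in this way. With elements required to overlap by at least 50% of each, 66.7% and 57.1% of the Olig connections were found again, because the +80 kb element no longer matched. The change in the number of connections of Olig2 stands beside 69.9% of all genes with a connection that changed in number. Of the 12 pairs listed in both tables, 2 changed in score by over 1.5-fold, both lower and both of Olig1, with the +80 kb element at a log2 ratio of -0.60 and the +7 kb element at -0.59. Over all matched pairs 28.4% changed by that much. Both elements had narrowed to 500 bp. With activity per kb and the deposited totals, which still hold the unscaled activities, these log2 ratios turned to 0.59 and 0.28. On that scale the pairs past 1.5-fold were those of the +80 kb element with Olig1 and with Olig2, the latter at 0.68, both higher with IFN-γ, beside 27.8% of all matched pairs.

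**Figure D3:**
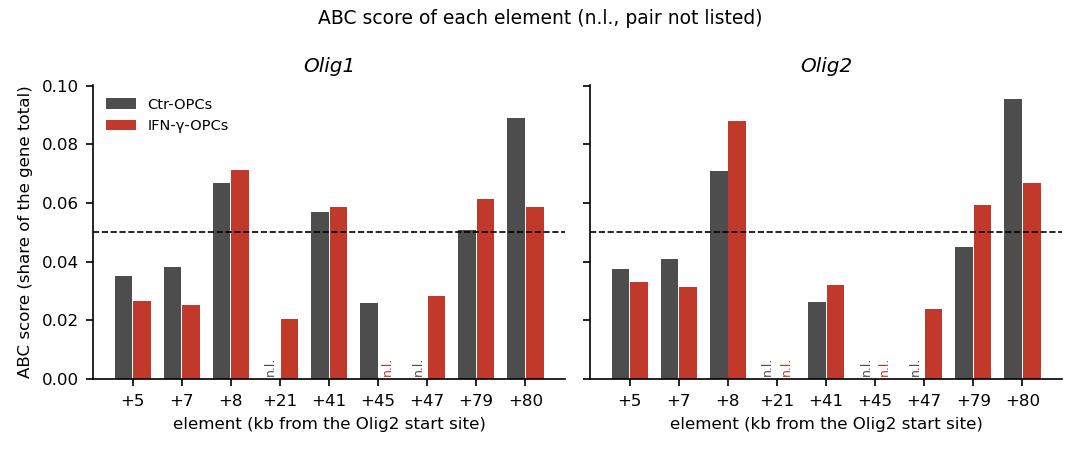
ABC score of each element with Olig1 (left) and Olig2 (right) in Ctr-OPCs (grey) and IFN-γ-OPCs (red), with the cut-off of 0.05 as a dashed line and n.l. for a pair that is not listed. With Olig2 the +79 kb element goes from 0.0451 to 0.0594, and the +80 kb element falls from 0.0957 to 0.0670.

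The log2 ratio of a score is the sum of the log2 ratios of activity and contact, less that of the gene total. The total of Olig1 was 2.50 in Ctr-OPCs versus 2.27 in IFN-γ-OPCs, and that of Olig2 2.39 and 2.23, log2 ratios of -0.14 and -0.097. Neither passed 1.5-fold, which 0.733% of 20321 genes did, and the median over genes was -0.066. The lower totals added 0.14 to the log2 score of every Olig1 pair and 0.097 to that of every Olig2 pair. At +80 kb the activity term of -0.85 was the main one for both genes. At +79 kb the Olig2 score rose by 0.40 on the log2 scale with a contact term of 0.35 and an activity term of -0.055. With the contact of Ctr-OPCs in place of its own, the IFN-γ score of that pair would be 0.0465, below the cut-off, and with the gene total of Ctr-OPCs it would be 0.0555, above it. With the activity of Ctr-OPCs it would be 0.0617, so that of the 3 terms only the contact moved this pair across the cut-off.

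**Figure D4:**
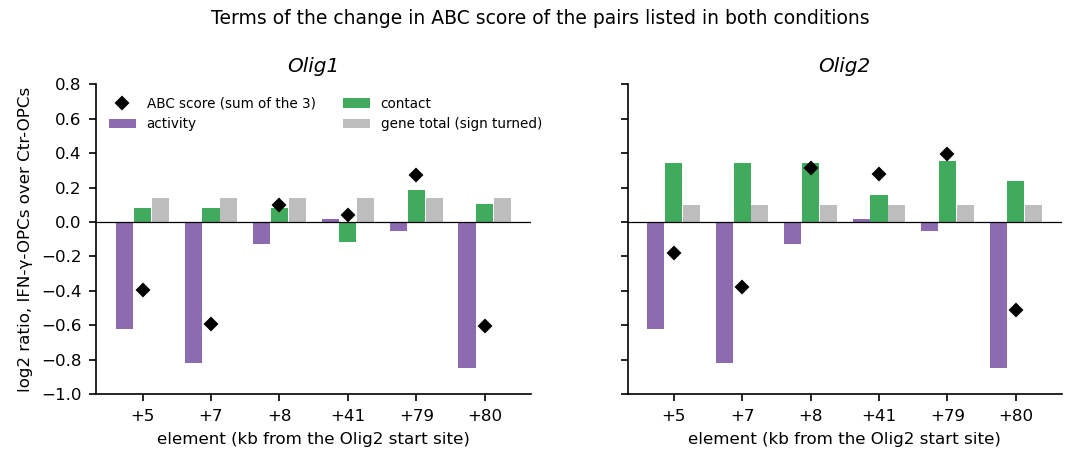
Log2 ratio, IFN-γ-OPCs over Ctr-OPCs, of the activity, the contact and the gene total (sign turned) for the 6 elements listed in both conditions, Olig1 left and Olig2 right, with diamonds for the ABC score as their sum. The activity bars reach -0.85 at +80 kb, and the contact bars are larger for Olig2, up to 0.35, than for Olig1, up to 0.19.

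The listed pairs added up to 36.3% of the total of Olig1 in Ctr-OPCs against 35.1% in IFN-γ-OPCs, and to 31.6% and 33.5% for Olig2, so that 63.7% to 68.4% of each total lay in elements under a score of 0.02 and in promoters. How the unlisted part divides between these was not tested. The best listed score of either gene was below 0.1 in both conditions. The 4 connections of Olig1 placed it among the 0.407% of Ctr-OPC target genes with at least as many, and among 0.414% in IFN-γ-OPCs. For Olig2 the share was 8.35% with 2 connections and 2.00% with 3. The totals of both genes were above 99.1% of genes in Ctr-OPCs and above 99.5% in IFN-γ-OPCs. The promoter activity quantile was 97.7% for Olig1 in both conditions and 98.2% and 99.4% for Olig2.

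The elements were listed for 26 other genes in Ctr-OPCs versus 15 in IFN-γ-OPCs, 10 of them in both and 31 in all. Counted as pairs, 22 of 39 in Ctr-OPCs and 22 of 29 in IFN-γ-OPCs were listed in both tables, 56.4% and 75.9%, while over all pairs this held for 44.6% and 41.6%. Over the pairs of elements with a match it held for 62.7% and 62.1%. Most of these pairs were weak, and above the cut-off there were 4 other genes in Ctr-OPCs against 3 in IFN-γ-OPCs. Those in Ctr-OPCs were Gm37016 and Gm49614, which lie within a few bins of Olig1 and Olig2, the lincRNA Gm15966, and Gm24695, annotated as a small nuclear RNA. Gm24695 had the highest score of any other gene, 0.101 with the +80 kb element, and 0.0507 in IFN-γ-OPCs. In IFN-γ-OPCs the others were Gm37016 and the processed pseudogene H3f3a-ps2, at 0.0779 with the +80 kb element. Small nuclear RNAs and H3f3a pseudogenes have near-identical copies elsewhere in the genome. Whether the promoter signal that let these 2 genes into the tables is their own was not tested.

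The +80 kb element had by far the widest set of targets. It was listed for 25 genes in Ctr-OPCs versus 16 in IFN-γ-OPCs, while +8 kb was listed for 10 and 6, +79 kb for 6 and 8, and +41 kb for 4 in both. Of the 12 genes it was listed for in both conditions, 9 had a lower score in IFN-γ-OPCs, as did 48.5% of all matched pairs. With activity per kb and the deposited totals, 0 of the 12 were lower. Because some targets share a bin, these 12 pairs hold 11 distinct contacts, of which 9 were higher in IFN-γ-OPCs, beside 54.6% of all matched pairs. The 12 were 48.0% of its targets in Ctr-OPCs, near the 44.6% of all Ctr-OPC pairs that were listed in both and below the 62.7% over elements with a match. They were 75.0% of its targets in IFN-γ-OPCs, above the 41.6% of all IFN-γ-OPC pairs and the 62.1% over elements with a match. Of the 13 listed only in Ctr-OPCs, 12 were still target genes of other elements in the IFN-γ-OPC table. Among these 13 were Mrap, at 0.0408, which encodes an accessory protein of the melanocortin-2 receptor, and Slc5a3, at 0.0258, which encodes a myo-inositol transporter. The Ctr-OPC scores of these 13 were all under 0.05, and none has a listed score with IFN-γ. The lower activity of the element in IFN-γ-OPCs, described above with its width, enters only the scores listed there. Why the 13 pairs were not listed with IFN-γ was not tested.

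**Figure D5:**
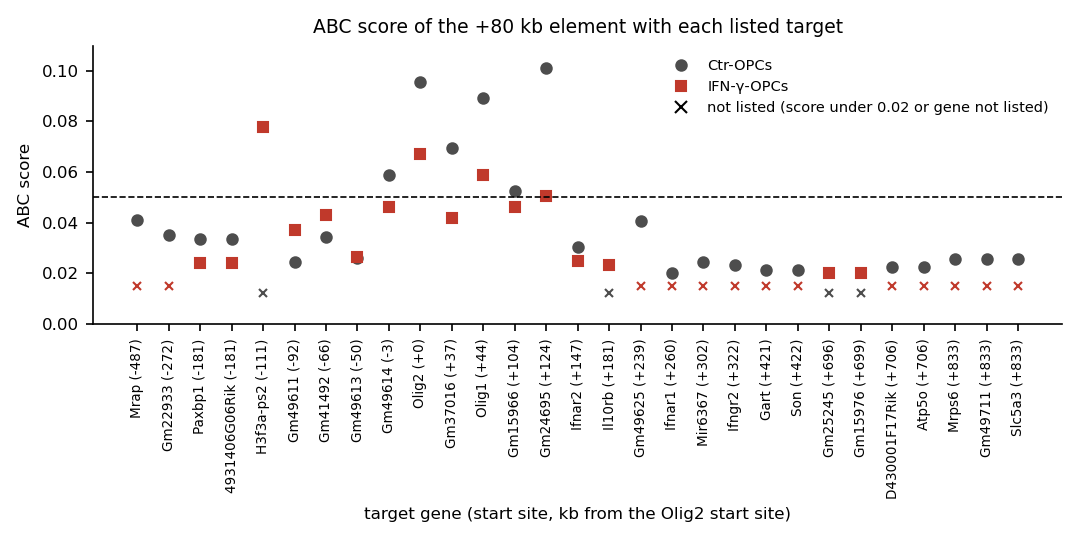
ABC score of the +80 kb element with each of its listed target genes, ordered by the start site in kb from that of Olig2, in Ctr-OPCs (circles) and IFN-γ-OPCs (squares), with crosses for pairs that are not listed and the cut-off of 0.05 dashed. Scores in Ctr-OPCs run from 0.0202 to 0.101, and most targets on the right are listed only in Ctr-OPCs.

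The interferon receptor genes lie next to this locus. Ifnar2 and Ifnar1 encode the chains of the type I interferon receptor, Ifngr2 a chain of the IFN-γ receptor and Il10rb a chain shared by receptors of interleukin-10 and type III interferon. Their start sites are 147, 260, 322 and 181 kb downstream of that of Olig2. In Ctr-OPCs the +80 kb element was listed for Ifnar2 at 0.0305, Ifngr2 at 0.0231 and Ifnar1 at 0.0202. In IFN-γ-OPCs it was listed for Ifnar2 at 0.0250 and for Il10rb at 0.0232. Ifnar1 had no listed pair with any element in IFN-γ-OPCs, and Il10rb had none in Ctr-OPCs. The scores of Ifnar1, Ifngr2 and Il10rb lie close to the listing limit of 0.02, so a listing in 1 condition only does not show a switch of targets. No receptor gene was a connection of an Olig element. Ifnar2 had 1 connection in each condition, to an element that was none of these, with a best score of 0.0746 in Ctr-OPCs against 0.0537 in IFN-γ-OPCs, and the other 3 had none. Contact between the +80 kb element and Ifnar2 was 0.00465 in Ctr-OPCs versus 0.00623 in IFN-γ-OPCs. Of 18 protein-coding genes other than the Olig genes within 500 kb of the Olig1 start, 10 were listed in Ctr-OPCs against 9 in IFN-γ-OPCs, with 2 connections in each condition, those of Ifnar2 and Eva1c.

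An active element upstream of Olig2 was listed for neither Olig gene, and it is given here after its values were seen. It lay at -34 kb (chr16:91191618-91192117 in Ctr-OPCs) with an activity of 5.52 in Ctr-OPCs versus 4.36 in IFN-γ-OPCs, beside 5.55 and 5.35 for the +79 kb element. Its best target was the processed pseudogene Gm49613, at 0.0798 and 0.0797. Since its pair with Olig2 was under a score of 0.02, its contact with Olig2 was below 0.00866 in Ctr-OPCs and below 0.0102 in IFN-γ-OPCs. The +79 kb element, at a longer distance from the same start site, had 0.0194 and 0.0248.

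Of 20 genes for lineage transcription factors and OLIG partners, 19 were listed in each condition, with 11 connections in Ctr-OPCs against 10 in IFN-γ-OPCs. The number of connections was higher with IFN-γ for 2 genes (Sox6 and Nkx6-1), lower for 3 (Olig3, Myrf and Tcf12) and equal for 15, of which 10 had none in either condition. Of the 10 with a connection, 5 thus changed in number, beside 69.9% of all such genes. Sox10, a direct regulator of myelin genes, had 0 connections in both and a best score of 0.0495 and 0.0350, with the highest total of the list, 3.13 and 2.65. The total of Zfp488, an OLIG2 co-repressor, went from 1.08 to 1.74 and was the only 1 of 18 past 1.5-fold, which 0.733% of all genes passed. Its best score went from 0.0682 to 0.349. The median log2 ratio of the totals over the 18 genes was -0.042. Olig3, the third Olig gene, lies on another chromosome and had 1 connection in Ctr-OPCs and no listed pair in IFN-γ-OPCs.

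The labelled cell type was checked on promoter activity quantiles. The 4 OPC markers other than Olig1 and Olig2, namely Pdgfra, Cspg4, Ptprz1 and Sox10, had medians of 89.2% in Ctr-OPCs versus 87.9% in IFN-γ-OPCs, with a lowest value of 85.1% and 81.5%. With Olig1 and Olig2 the medians were 92.8% and 93.7%. Of 5 microglia markers 3 were listed in Ctr-OPCs against 5 in IFN-γ-OPCs, with medians of 62.1% and 62.5% over those listed, and the highest was P2ry12 at 78.2% and 82.5%. The medians were 77.1% and 77.8% for astrocyte markers, 77.7% and 76.4% for neuron markers, and 70.1% in both for markers of mature oligodendrocytes. Quantiles rank promoters within a table and are not cell shares. The part of other cells in the values of the locus was not tested.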

How the data were processed

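HiChIP for H3K27ac was performed on 6 libraries of cultured mouse OPCs, 3 per condition, grouped by the treatment in the labels. Per the study's methods, libraries came from different litters and cells were pooled from several brains. Per the labels and methods, the authors aligned reads to mm10 with HiC-Pro (version not given in the sources used here) and combined contacts with ATAC-seq and H3K27ac CUT&RUN in the ABC model. The authors deposited 1 table per condition, pooled over libraries, so that no SD, n or test exists and depth is unknown. Element activity is deposited as a signal. The ABC score is deposited as a fraction, and the promoter activity quantile as a rank between 0 and 1. Contact, adjusted contact, power-law contact, a power-law score and the activity-contact product were deposited by the authors as score values in no physical unit. The labels name 1 contact file for all 6 libraries, although the 2 tables hold different contacts, and how activity and contact were scaled between conditions is not given in the sources used here. The tables hold scores from 0.02 and promoter quantiles from 0.4. The short tables held the same pairs and the paired-region files were not used.

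Elements were matched between tables as mutual best overlaps of at least 1 bp. The gene total is the activity-contact product of a pair over its score. A change past 1.5-fold is called, beside the same share over all matched elements, pairs or genes. The contact limit of an unlisted pair is 0.02 times the gene total divided by the activity of the element. Target genes were named through GENCODE M21, which held 99.7% of them in each table. Sequences were read from the GRCm38.p6 reference, the build of the tables, and motifs were searched on both strands. Positions are 1-based. Genes named are Olig1, Olig2, the other targets of their elements, the receptor genes Ifnar1, Ifnar2, Ifngr2 and Il10rb, and fixed lists of neighbours, lineage factors and markers. The members and lists were chosen with earlier results of these data known. A gene of the lineage list is not reported here, and the counts leave it out. Matching was tested on simulated data. The software was Python 3.11.15 with pysam 0.24.0, pandas 2.3.3, NumPy 2.4.6, matplotlib 3.10.9 and SciPy 1.17.1.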

Additional observations from a re-analysis of the deposited data

How the results depend on the processing

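No paired analysis was possible because each condition has 1 pooled table and the columns carry no replicate numbers, and for the same reason no library could be left out. Of 37 alternative values, 3 changed sign and 22 moved. The other 12 were counts within 1.5 times the first, shares within its 95% Wilson interval or log2 medians equal to 2 decimals, limits too wide for such small counts to show that a value held, since they take in the power-law counts of Olig2 and, at 50% overlap, the shares of 66.7% and 57.1% in place of 100.0% and 85.7%. Counting all listed pairs gave Olig1 7 and 8 pairs and Olig2 6 and 7, without and with IFN-γ. A cut-off of 0.1 left 0 connections for either gene in either condition. With a score from the power law of distance in place of measured contact Olig1 had 2 and 1 connections and Olig2 had 3 and 2, so that the change for Olig2, from 2 to 3 on the ABC score, turned its direction. Any listed pair in the other condition raised the share of IFN-γ-OPC connections found again to 100.0%. The median log2 ratio of activity of the elements, -0.37, was -0.27 relative to the medians of the tables, -0.13 for elements overlapping by at least 50% of each, and -0.091 for those with a connection. Of 3 settings chosen after seeing the data, elements of the same width gave -0.055, and activity per kb of element turned the sign, to 0.039, as it did that of the score, to 0.34 at the deposited totals. The median log2 ratio of contact was 0.18 without the authors' pseudocount and 0.19 for pairs with a connection. The median log2 ratio of the score, -0.069, was -0.19 for the power-law score and turned to 0.069 at 50% overlap, where the +80 kb element was no longer matched. Relative to the median of each table the log2 ratios of the totals were -0.091 for Olig1 and -0.048 for Olig2. Above a score of 0.05 the other target genes numbered 4 in Ctr-OPCs versus 3 in IFN-γ-OPCs. Apart from the element lost at 50% overlap, the cause of these shifts was not tested.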
